A study of Mus musculus with 14 samples.

Results

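The nuclear genes of oxidative phosphorylation were taken by name from the deposited gene table of mouse skeletal muscle. A gene was included when it was protein-coding and its symbol began with Nduf followed by a, b, c, s or v and a digit, was Sdha, Sdhb, Sdhc or Sdhd, or began with Uqcr, with Cox followed by a digit from 4 to 8 and a, b or c, or with Atp5. No measured value entered this rule. It found 83 of the 54532 genes in the table. By symbol alone, 37 were assigned to complex I, 4 to complex II, 8 to complex III, 16 to complex IV and 18 to complex V. Of the 15458 genes that passed the filter on low counts, 80 were on the list: all 37, 4 and 8 of complexes I to III, 14 of complex IV and 17 of complex V. The 3 that did not pass were Cox7b2 (ENSMUSG00000049387, chromosome 5, 71442824 to 71548205), with 0 to 2 counts per library, Cox8c (ENSMUSG00000043319, chromosome 12, 102899316 to 102900526), with 0 counts in every library, and a second identifier of Atp5o (ENSMUSG00000116933), also with 0 counts. The rule leaves out the assembly factors named Ndufaf and 5 genes of the chain with other symbols (Ndufab1, Cyc1, Cycs, Cox4i1 and Cox4i2), and it takes in 3 tested genes that are not regular subunits (Ndufa4l2, Cox7a2l and Atp5s).

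The study asked whether c-Myc in endothelial cells changes the response of mice to a western-style diet. All mice were FVB/N males carrying Tet-O-MYC, a human c-Myc transgene that needs the transactivator tTA. In the overexpression mice (OE) the Cdh5 promoter, active in endothelial cells, drove tTA, and withdrawal of doxycycline at 4 to 6 weeks of age switched the transgene on; control mice (CT) carried the Tet-O transgene but no tTA. Each genotype received a control diet (CTD, TD.08485) or a high-fat western diet (WD, TD.88137) for 20 weeks by the labels, which gave 3 CT-CTD, 3 CT-WD, 4 OE-CTD and 4 OE-WD libraries of polyadenylated RNA. Ages at tissue collection were not given in the sources used here. The tissue came from soleus and gastrocnemius, and which muscle each library came from was not given in the sources used here. Group sizes and the time on diet in the study's text differ in places from the labels, and the labels were kept. The labels do not say that the libraries of a group came from separate animals, so the p-values may measure only the spread between these samples. The transgene's own reads were not analysed here.

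Oxidative phosphorylation couples the oxidation of NADH and succinate to the synthesis of ATP in the inner mitochondrial membrane. Complex I takes electrons from NADH and complex II from succinate, complex III passes them to cytochrome c, complex IV hands them to oxygen, and complex V, the ATP synthase, uses the proton gradient built by complexes I, III and IV. Most subunits are encoded in the nucleus and a few in mitochondrial DNA, and oxidative muscle fibres hold more of these complexes than glycolytic fibres.

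The libraries held 21833839 to 28519159 counts in genes, and the listed genes took 1.95% (OE-WD 4) to 2.68% (OE-CTD 1) of them. Levels are given below as CPM, counts relative to the library total after TMM scaling, and log2 fold changes with their standard error (SE) come from edgeR's quasi-likelihood test fitted on all 14 libraries. Adjusted p-values are Benjamini-Hochberg values over all 15458 genes, and a gene was called at an adjusted p under 0.05. Counts at an unadjusted p under 0.05 are given as a description, and the share of all tested genes is given once for each comparison. A count from another run without its own share of all genes is not read as a result about the list. The smallest mean count among the 80 tested genes was 12.6 per library. Coordinates are on GRCm38 (mm10).

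The tissue label was checked against marker genes. All 5 skeletal muscle markers were detected in every library, with a summed level from 65207 to 91799 CPM, led by Acta1. The 9 fast fibre markers, led by Myh4, summed to 107033 to 151517 CPM and the 8 slow fibre markers, led by Atp2a2, to 4717 to 7468 CPM. The endothelial markers, led by Cdh5, lay below their overall mean in all 6 CT libraries (median deviation -0.30 to -0.14 on the log2 scale) and above it in all 8 OE libraries (0.06 to 0.28).

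Some libraries stood apart from the rest of their group. OE-CTD 4 and OE-WD 4 had the lowest TMM factors (0.888 and 0.899) and the highest levels of the 13 genes encoded in mitochondrial DNA (median deviation 0.55 and 0.49). In CT-WD 1 the tendon, epidermis and macrophage markers deviated by 0.93, 2.54 and 0.59, whereas in CT-WD 2 and CT-WD 3 all 3 lists lay below their means, the tendon list at -1.95 and -2.35. CT-WD 1 was also the lowest of the CT-WD libraries in the listed genes, with a median deviation of -0.07 against 0.14 and 0.19. Replicates of one group differed by a chi-square per degree of freedom of 7.81 to 50.8 over genes, lowest among OE-CTD 1 to 3 (7.81 to 10.6) and OE-WD 1 to 3 (8.52 to 15.2), and higher for the pairs with OE-CTD 4 (37.0 to 43.0) and with OE-WD 4 (38.9 to 42.8); no pair agreed within sampling noise. The sample names carry numbers: OE-CTD 1 to 3 share one and the 4 OE-WD libraries share another, while CT-CTD 1, CT-WD 1 and OE-CTD 4 carry numbers apart from the rest of their groups. The labels do not say what these numbers mark, and for the OE-WD libraries the number and the group cannot be told apart. If a shared number marks one animal, the libraries that share it are not separate animals.

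Among genes of one complex, levels are compared per length, as mean FPKM of the 14 libraries with the TMM factors applied. These ranks depend on the lengths of the gene models, and CPM can order the genes otherwise. In complex I the lowest was Ndufb2 (ENSMUSG00000002416, chromosome 6, 39592574 to 39603382), an accessory membrane subunit, at 2.68 FPKM. By CPM it was not the lowest, with 12.4 to 19.5 against 6.69 to 10.8 for Ndufa4l2. Ndufs1 (ENSMUSG00000025968, chromosome 1, 63143596 to 63176833), the largest iron-sulphur subunit of the complex, had 42.5 FPKM and Ndufv1 (ENSMUSG00000037916, chromosome 19, 4007497 to 4012806), which binds NADH, 154 FPKM. Of the 4 subunits of complex II, Sdhd (ENSMUSG00000000171, chromosome 9, 50596357 to 50603812) had 192 FPKM, Sdhb (ENSMUSG00000009863, chromosome 4, 140961203 to 140979193) 182, Sdha (ENSMUSG00000021577, chromosome 13, 74322254 to 74350280) 175 and Sdhc (ENSMUSG00000058076, chromosome 1, 171127165 to 171150603) 84.5 FPKM. In complex III the Rieske iron-sulphur protein Uqcrfs1 (ENSMUSG00000038462, chromosome 13, 30540308 to 30545362) was highest at 381 FPKM, the core protein gene Uqcrc1 (ENSMUSG00000025651, chromosome 9, 108936633 to 108949623) had 233 and the other core protein gene, Uqcrc2 (ENSMUSG00000030884, chromosome 7, 120635176 to 120659524), was lowest at 156.

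Complex IV has paired isoforms, one found mainly in heart and skeletal muscle and one in most tissues. The muscle isoforms were the higher in each of the 3 pairs: Cox6a2 (ENSMUSG00000030785, chromosome 7, 128205435 to 128206387) had 1246 FPKM against 44.4 for Cox6a1 (ENSMUSG00000041697, chromosome 5, 115345642 to 115348981), Cox7a1 (ENSMUSG00000074218, chromosome 7, 30184144 to 30186078) had 285 against 139 for Cox7a2 (ENSMUSG00000032330, chromosome 9, 79755361 to 79759878), and Cox8b (ENSMUSG00000025488, chromosome 7, 140898945 to 140900446) had 667 against 57.6 for Cox8a (ENSMUSG00000035885, chromosome 19, 7215158 to 7217616). The lowest tested gene of complex IV was Cox6b2 (ENSMUSG00000051811, chromosome 7, 4751792 to 4753094), known from testis, at 0.438 FPKM. In complex V the head genes Atp5a1 (ENSMUSG00000025428, chromosome 18, 77773729 to 77782869) and Atp5b (ENSMUSG00000025393, chromosome 10, 128083273 to 128090391), for the alpha and beta subunits, stood at 855 and 654 FPKM. Of the 3 genes that encode the same c subunit of the rotor ring, Atp5g3 (ENSMUSG00000018770, chromosome 2, 73908447 to 73911326) had 239, Atp5g2 (ENSMUSG00000062683, chromosome 15, 102662864 to 102672352) 108 and Atp5g1 (ENSMUSG00000006057, chromosome 11, 96068852 to 96075670) 73.3 FPKM. Not divided by length, Atp5g1 was above Atp5g2 in every library, with 311 to 441 against 164 to 206 CPM. Near-identical copies of Atp5g1 held counts equal to 23.9% of its own. The lowest was Atp5s (ENSMUSG00000054894, chromosome 12, 69724950 to 69744660), a coupling factor, at 6.32 FPKM. The listed genes are short, with a median length of 1578 bases against 4010 bases for all tested genes.

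The first comparison asked how endothelial c-Myc overexpression changed muscle on the western diet (OE-WD against CT-WD). The genes of all 5 complexes had a lower median level in OE-WD: the median log2 fold change over the 80 genes was -0.20, against 0.01 over all tested genes, and 75 of the 80 lay below 0. Complexes I, II, III, IV and V had medians of -0.22, -0.15, -0.23, -0.24 and -0.19. Of the 80, 1 passed the test and fell, Atp5l; among all genes the test called 112 (0.725%). At an unadjusted p under 0.05, 36 of the 80 (45%) were lower, against 8.42% of all genes, and 1 (Ndufa4l2) was higher, against 8.44%. The 36 were 17 of 37 genes of complex I, 0 of 4 of complex II, 5 of 8 of complex III, 7 of 14 of complex IV and 7 of 17 of complex V. All 4 OE-WD libraries lay below all 3 CT-WD libraries for 18 genes (11 of complex I, 3 of IV and 4 of V), or 22.5% against 5.54% of all genes, and above them for 0, against 6.06%. In bulk muscle, fewer cells rich in these transcripts and less of them per cell cannot be told apart.

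The call and the counts changed as single libraries were left out. With edgeR's quasi-likelihood test, 24 of the 80 genes passed without CT-WD 1 (13 of complex I, 0 of II, 4 of III, 4 of IV and 3 of V), when 1499 of 15828 genes (9.47%) were called in all. None of the 80 passed without CT-WD 2, CT-WD 3, OE-CTD 2, OE-WD 2, OE-WD 3 or OE-WD 4, with 19, 13, 34, 30, 28 and 33 genes at an unadjusted p under 0.05. The unadjusted count of 37 became 62 without CT-WD 1, 19 without CT-WD 2 and 13 without CT-WD 3, when 26.0%, 11.4% and 10.03% of all genes were at such a p (16.9% with every library), and the median ranged from -0.29 to -0.15 as each library was left out in turn. DESeq2 called 6 of the 80 (Ndufa5, Ndufa6, Ndufs7, Cox7a2, Atp5j2 and Atp5l), beside 576 of the 13952 genes to which it gave an adjusted p (4.13%), and limma on log2(FPKM + 1) called 0 with 34 at an unadjusted p under 0.05. Without OE-CTD 4 and OE-WD 4, edgeR called 0 of the 80, 36 were at an unadjusted p under 0.05 and the median was -0.20. Without any scaling factor it called 0, with 21 at an unadjusted p under 0.05 and a median of -0.16, and the median kept its sign in the 4 comparisons and the interaction with TMM factors, median ratio factors and no factor. Where no share of all genes at such a p stands beside a count, that count is not read as a result about the list.

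The summed level of each complex shows the same libraries. Complex I summed to 6059, 6994 and 7312 CPM in the 3 CT-WD libraries and 5993, 5878, 5890.2 and 5806 CPM in the 4 OE-WD libraries, with 6789 ± 651 (SD, n = 3) against 5892 ± 76.8 CPM (SD, n = 4). The OE-WD libraries lay within a narrow range, below CT-WD 2 and CT-WD 3 and next to CT-WD 1. In the control-diet groups the sums were 6227 ± 377 in CT-CTD (SD, n = 3) and 6518 ± 349 CPM in OE-CTD (SD, n = 4). Complex II summed to 1573 ± 83.9 CPM in CT-CTD, 1680.3 ± 51.3 in CT-WD, 1706 ± 89.99 in OE-CTD and 1591 ± 69.3 in OE-WD, and complex III to 2762 ± 182, 3038 ± 281, 2992 ± 151 and 2687 ± 85.6 CPM in the same order (SD, n = 3, 3, 4 and 4). For complex IV the 4 sums were 2890.1 ± 57.3, 3177 ± 335, 3157 ± 174 and 2773 ± 104 CPM, and for complex V 9529 ± 569, 10405 ± 835, 10165 ± 412 and 9319 ± 196 CPM. Complex II had its highest mean in OE-CTD and the other complexes theirs in CT-WD. Summed over all 80 genes the levels were 22981 ± 1142 CPM in CT-CTD, 25089 ± 2149.5 in CT-WD, 24538 ± 1129 in OE-CTD and 22262 ± 514 in OE-WD (SD, n = 3, 3, 4 and 4), so CT-WD had the highest mean and the widest spread and OE-WD the lowest of both. The 4 OE-WD libraries share a number in their names, and the labels do not say that they came from separate animals.

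**Figure D1:**
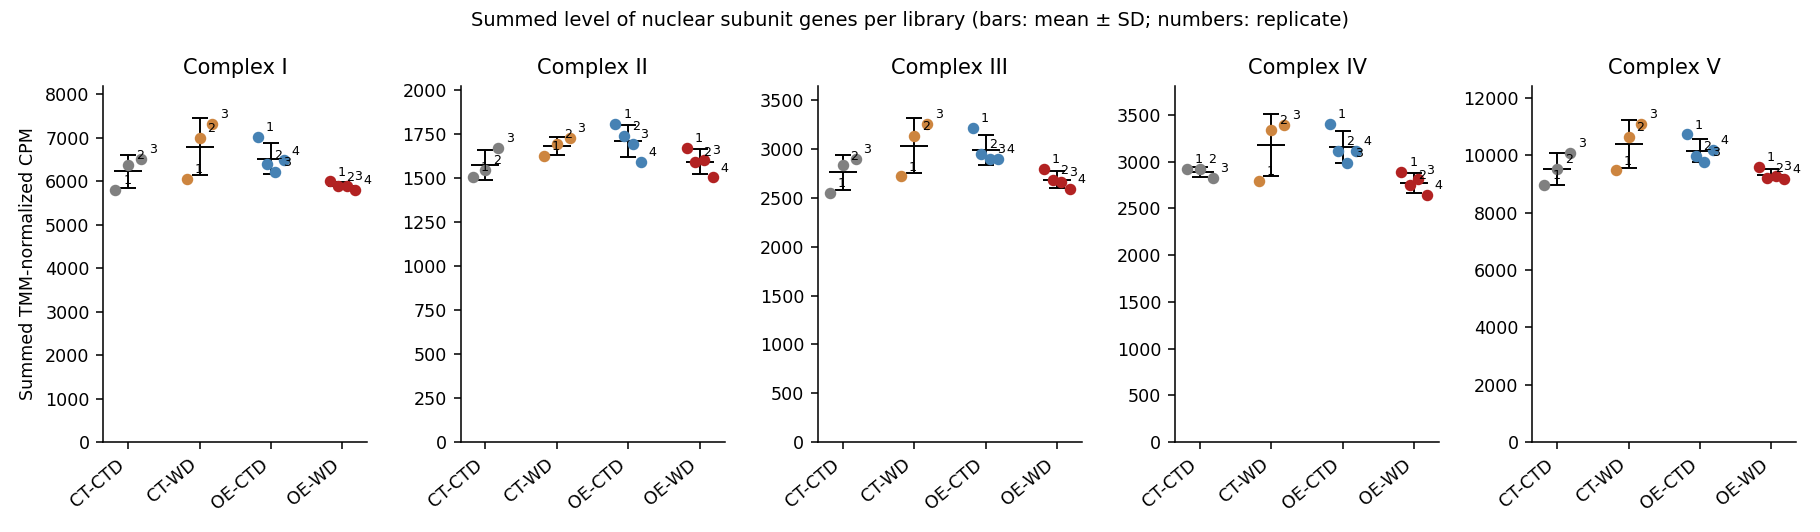
Summed level of the tested genes of each complex in every library, in CPM after TMM scaling (vertical axis from 0), by group (horizontal axis); dots are libraries marked with their replicate number, and bars are the mean ± SD of 3 CT-CTD, 3 CT-WD, 4 OE-CTD and 4 OE-WD libraries. For complex I the 4 OE-WD libraries sit between 5806 and 5993 CPM, while CT-WD 1 is at 6059 and CT-WD 2 and 3 are at 6994 and 7312 CPM.

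In complex I the gene with the smallest p was Ndufs7 (ENSMUSG00000020153, chromosome 10, 80249121 to 80256794), a core iron-sulphur subunit of the quinone-reducing arm. It had 297, 378 and 374 CPM in CT-WD against 283, 259, 285 and 256 CPM in OE-WD. All OE-WD libraries lay below all CT-WD libraries, and CT-WD 1 was the lowest of its group. The log2 fold change was -0.37 (SE 0.0935), with an adjusted p of 0.0764 by edgeR's quasi-likelihood test with Benjamini-Hochberg adjustment. Of the core genes on the NADH side, Ndufv1 had 369, 410.0 and 406 CPM in CT-WD against 373, 364, 375 and 382 CPM in OE-WD (-0.08, SE 0.0710 on the log2 scale) and Ndufs1 361, 319.5 and 319 CPM in CT-WD against 378, 360.4, 350.5 and 315 CPM in OE-WD (0.07, SE 0.0890), and for both the groups overlapped. Ndufv2 (ENSMUSG00000024099, chromosome 17, 66078638 to 66101559), the third of them, had 258, 303 and 309 CPM in CT-WD against 251, 236, 246 and 253 CPM in OE-WD, without overlap, and -0.24 (SE 0.0890), and was chosen after its values were seen.

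Ndufa4l2 (ENSMUSG00000040280, chromosome 10, 127514967 to 127517154) was the one listed gene on the other side at an unadjusted p under 0.05, and it was singled out after its values were seen. It resembles Ndufa4 and is known as a target of hypoxia signalling, and it had 9.15, 7.39 and 7.47 CPM in CT-WD against 9.07, 10.7, 10.8 and 9.76 CPM in OE-WD. CT-WD 1 lay among the OE-WD values, and the log2 fold change was 0.33 (SE 0.147). The gene overlaps Shmt2, whose count was 379% of its own, and the counting is not stated to use strand.

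Complex II had the smallest median difference, and none of its 4 genes was at an unadjusted p under 0.05 in edgeR's test. Sdhc, a membrane anchor, had the smallest p, with 259, 301 and 304 CPM in CT-WD against 263, 258, 262 and 253 CPM in OE-WD and a log2 fold change of -0.15 (SE 0.0825). CT-WD 1 lay among the OE-WD libraries. Sdha, the flavoprotein that oxidises succinate, had 755, 699 and 706 CPM in CT-WD against 756, 732, 729 and 702 CPM in OE-WD (0.02, SE 0.0728 on the log2 scale). Sdhb, the iron-sulphur subunit, and Sdhd, the other anchor, had log2 fold changes of -0.14 (SE 0.0794) and -0.19 (SE 0.149), with overlapping groups.

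In complex III the smallest p was that of Uqcr10 (ENSMUSG00000059534, chromosome 11, 4701973 to 4704342), a small subunit beside cytochrome c1. It had 163, 216 and 229 CPM in CT-WD against 172, 160.0, 161 and 147 CPM in OE-WD. CT-WD 2 and CT-WD 3 lay above every OE-WD library and CT-WD 1 among them, and the log2 fold change was -0.34 (SE 0.110). All 8 genes of the complex had a log2 fold change below 0, from -0.34 to -0.07. Uqcrfs1 had -0.20 (SE 0.109) and Uqcrc1 -0.13 (SE 0.0953) on the log2 scale.

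In complex IV the smallest p was that of Cox7a2, the isoform of subunit VIIa found in most tissues. It had 127, 161 and 148 CPM in CT-WD against 121, 116, 114 and 117 CPM in OE-WD. The groups did not overlap, and the log2 fold change was -0.31 (SE 0.0840), with an adjusted p of 0.0914 by edgeR's quasi-likelihood test with Benjamini-Hochberg adjustment. Its muscle partner Cox7a1 had 147, 165 and 187 CPM in CT-WD against 148, 142, 138 and 122 CPM in OE-WD and -0.27 (SE 0.0945) on the log2 scale, with CT-WD 1 inside the OE-WD range. Cox8b, also a muscle isoform, had 260.4, 276 and 266 CPM in CT-WD against 251, 216, 223 and 181 CPM in OE-WD and -0.29 (SE 0.108), without overlap. In the other pair members the log2 fold changes were -0.13 (SE 0.126) for Cox8a, -0.09 (SE 0.123) for Cox6a1 and -0.09 (SE 0.109) for Cox6a2, and Cox5a (ENSMUSG00000000088, chromosome 9, 57521274 to 57532426), which binds next to the catalytic core, had -0.23 (SE 0.0866).

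Atp5l (ENSMUSG00000038717, chromosome 9, 44912557 to 44920742), which encodes subunit g of the membrane part of ATP synthase, a subunit needed where the enzyme forms dimers, was the gene that passed the test. It had 185, 218 and 252 CPM in CT-WD and 166, 145, 154 and 135 CPM in OE-WD. Every OE-WD library lay below every CT-WD library, and CT-WD 3 was the highest of all 14. The control-diet groups had 193, 178 and 201 CPM (CT-CTD) and 194, 172, 184 and 157 CPM (OE-CTD), and these groups overlapped each other. Atp5l fell by 0.54 on the log2 scale (SE 0.108), with an adjusted p of 0.0325 by edgeR's quasi-likelihood test with Benjamini-Hochberg adjustment, lower in 4 of 4 OE-WD libraries. The log2 fold change ranged from -0.65 to -0.43 as each library was left out, and the call was lost without CT-WD 2, CT-WD 3, OE-CTD 2, OE-WD 2, OE-WD 3 or OE-WD 4. It was also lost with limma on log2(FPKM + 1) and on log2(FPKM + 0.1), with the 2 groups alone, with a fold change over 1.5 asked for, without scaling factors, without OE-CTD 4 and OE-WD 4 together, and with the counts of Senp6 and of near-identical copies added (values given with the copies). The log2 fold change was below 0 in each of these fits. In the model with the replicate number as a block the log2 fold change was -0.49 (SE 0.0924).

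The other genes of complex V differed less than Atp5l. Atp5j2 (ENSMUSG00000038690, chromosome 5, 145183698 to 145192062), subunit f of the membrane part, had 254, 299 and 297 CPM in CT-WD against 247, 238, 234 and 233 CPM in OE-WD, without overlap, and -0.25 (SE 0.0784) on the log2 scale. The head genes Atp5a1 and Atp5b had -0.08 (SE 0.0873) and -0.15 (SE 0.0832); the Atp5b groups did not overlap (2773, 2987 and 3092 CPM in CT-WD against 2767, 2667, 2685 and 2508 CPM in OE-WD). For the c-ring genes the log2 fold changes were -0.25 (SE 0.108) for Atp5g1, -0.20 (SE 0.0768) for Atp5g2 and -0.20 (SE 0.102) for Atp5g3. All 17 genes of the complex had a log2 fold change below 0.

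On the control diet (OE-CTD against CT-CTD) the median difference of the genes lay on the other side of 0 and was smaller. The median log2 fold change over the 80 genes was 0.09, against 0.00 over all genes, 68 of the 80 lay above 0, and complexes I to V had 0.09, 0.13, 0.12, 0.10 and 0.09. EdgeR's quasi-likelihood test called 0 of the 80, while 413 of all genes (2.67%) were called; at an unadjusted p under 0.05, 9 of the 80 were higher (11.2%, against 9.22% of all genes) and 0 lower (against 6.70%). DESeq2 called 0, against 5.83% of all genes, with 10 at an unadjusted p under 0.05, and limma on log2(FPKM + 1) called 0 with 12. The 9 were 3 genes of complex I (Ndufv1, Ndufa10 and Ndufs8), 1 of complex II (Sdha), 1 of complex III (Uqcrq), 4 of complex IV (Cox8a, Cox5b, Cox6a2 and Cox7a1) and 0 of complex V, a share near that of all genes. All OE-CTD libraries lay above all CT-CTD libraries for 9 genes (8.73% of all genes) and below them for 1, Atp5s (6.75%). The replicate block gave 16 genes at an unadjusted p under 0.05. The share of all genes under the block is not given for this comparison, so this count is not read as a result about the list.

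The count of 9 moved with single libraries: it was 5 without CT-CTD 1, 3 without CT-CTD 2, 0 without OE-CTD 1, and 5 without either OE-WD 1 or OE-WD 2, and 6 without OE-WD 3. Without CT-CTD 1, 1 gene was called, Cox6a1, with a log2 fold change of 0.46 (SE 0.108). Its adjusted p was 0.0423 by edgeR's quasi-likelihood test with Benjamini-Hochberg adjustment, and 0.314 in the same test with all libraries. The share of all genes called without CT-CTD 1 is not given here, so this call is not read as a result about the list. Cox6a1 had 35.9, 23.2 and 26.4 CPM in CT-CTD against 37.8, 31.7, 34.2 and 33.3 CPM in OE-CTD. CT-CTD 1 lay among the OE-CTD libraries, apart from the other CT-CTD libraries.

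Ndufv1 had 361, 364 and 367 CPM in CT-CTD against 437, 412, 392 and 408 CPM in OE-CTD. All 4 OE-CTD libraries lay above the narrow CT-CTD range, and the log2 fold change was 0.18 (SE 0.0713). In complex II, Sdha had 688, 643 and 681 CPM in CT-CTD against 778, 767, 728 and 723 CPM in OE-CTD, again without overlap (0.16, SE 0.0730 on the log2 scale). Uqcrq (ENSMUSG00000044894, chromosome 11, 53427922 to 53430831), a small subunit of complex III that holds cytochrome b, had 274, 292 and 287 CPM in CT-CTD against 362, 309, 303 and 331 CPM in OE-CTD and 0.20 (SE 0.0916). OE-CTD 1 was the highest library for each of these 3 genes. Cox8a had the smallest p of complex IV, with 32.7, 29.6 and 25.4 CPM in CT-CTD against 43.3, 37.9, 32.6 and 32.6 CPM in OE-CTD and 0.32 (SE 0.126), where CT-CTD 1 reached the lower OE-CTD values. The muscle isoforms Cox6a2 and Cox7a1 had 0.25 (SE 0.110) and 0.20 (SE 0.0951) on the log2 scale, and Cox8b had 0.07 (SE 0.109). In complex V, Atp5k (ENSMUSG00000050856, chromosome 5, 108433244 to 108434448), subunit e, which pairs with subunit g, had the smallest p (0.22, SE 0.116), and Atp5l had -0.11 (SE 0.108), with overlapping groups.

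In control mice the median difference between the diets lay slightly above 0 (CT-WD against CT-CTD), and edgeR called no gene. Over the 80 genes the median log2 fold change was 0.13, against 0.01 over all genes, and 77 lay above 0, with medians per complex from 0.10 (complex II) to 0.14 (complex III). EdgeR's quasi-likelihood test called 0 of the 80 and 0 of all genes (0.00%); at an unadjusted p under 0.05, 1 gene was higher (Cox7a1, against 4.19% of all genes) and 0 lower (against 3.09%). DESeq2 called 0, against 0.268% of all genes, with 3 at an unadjusted p under 0.05, and limma on log2(FPKM + 1) 0 with 2. From a check of correlations alone, the replicate numbers were taken to pair the CT libraries, which the labels do not state. With the block, edgeR called 0 of the 80, with 2 at an unadjusted p under 0.05 in the model of all groups and 0 in the CT groups alone. The CT-WD libraries lay above all CT-CTD libraries for 3 genes (4.47% of all genes) and below them for 0 (5.16%). The count of 1 became 4 without CT-CTD 1, 34 without CT-WD 1 (when 12.1% of all genes were at such a p, against 7.28% with every library) and 0 without CT-WD 2, CT-WD 3 or OE-CTD 2, and the median ranged from 0.07 to 0.20.

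Cox7a1 had 149, 143 and 135 CPM in CT-CTD against 147, 165 and 187 CPM in CT-WD. CT-WD 2 and CT-WD 3 were above all CT-CTD libraries and CT-WD 1 was within their range, and the log2 fold change was 0.23 (SE 0.101), with an adjusted p of 0.667 by edgeR's quasi-likelihood test with Benjamini-Hochberg adjustment. The same placing of CT-WD 1 was seen for Ndufs7, with 287, 312 and 323 CPM in CT-CTD against 297, 378 and 374 CPM in CT-WD (0.19, SE 0.10 on the log2 scale), and for Atp5j2, with 238, 260.2 and 259 CPM in CT-CTD against 254, 299 and 297 CPM in CT-WD (0.17, SE 0.0841). Sdhb had 0.13 (SE 0.0850) and Uqcr11 (ENSMUSG00000020163, chromosome 10, 80402997 to 80406830), a small subunit of complex III, 0.21 (SE 0.121), the smallest p of their complexes. The levels of the head genes were close, with log2 fold changes of 0.11 (SE 0.0934) for Atp5a1 and 0.15 (SE 0.0892) for Atp5b; for Atp5b all CT-WD libraries lay above all CT-CTD libraries.

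In overexpression mice the median difference between the diets lay below 0 (OE-WD against OE-CTD), and none of the 80 genes passed edgeR's test. The median log2 fold change over the 80 genes was -0.17, against 0.00 over all genes, and 78 lay below 0; complexes I to V had -0.16, -0.13, -0.18, -0.20 and -0.17. EdgeR's quasi-likelihood test called 0 of the 80 and 1 of all genes (0.00647%). At an unadjusted p under 0.05, 26 of the 80 (32.5%) were lower, against 2.27% of all genes, and 0 higher, against 1.93%: 11 genes of complex I, 1 of II, 3 of III, 7 of IV and 4 of V. DESeq2 called 0, against 0.00647% of all genes, with 27 at an unadjusted p under 0.05, and limma on log2(FPKM + 1) 0 with 25. All OE-WD libraries lay below all OE-CTD libraries for 29 genes (36.2%, against 2.23% of all genes) and above them for 1, Ndufa12 (against 1.84%). The count of 26 was 8 without OE-CTD 1, 15 without OE-WD 2, 17 without OE-WD 3 and 13 without both OE-CTD 4 and OE-WD 4, and the median ranged from -0.19 to -0.13 with single libraries left out. No share of all genes at such a p is given for these runs, so their counts are not read as results about the list. OE-CTD 1 was the highest OE-CTD library in the listed genes (median deviation 0.17, the others -0.01 to 0.05).

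Ndufa5 (ENSMUSG00000023089, chromosome 6, 24518666 to 24528013), an accessory subunit of the arm of complex I in the matrix, had 155, 137, 130.0 and 124 CPM in OE-CTD against 119, 116, 110.2 and 109.5 CPM in OE-WD. The groups did not overlap, OE-CTD 1 stood above the rest, and the log2 fold change was -0.26 (SE 0.0855). In complex II, 1 gene was at an unadjusted p under 0.05, Sdhb, with 459, 429, 438 and 413 CPM in OE-CTD against 404, 377, 384 and 377 CPM in OE-WD and -0.17 (SE 0.0736) on the log2 scale. Uqcrq of complex III had 362, 309, 303 and 331 CPM in OE-CTD against 276, 283, 268 and 268 CPM in OE-WD and -0.25 (SE 0.0845). The 7 genes of complex IV included Cox8a, with 43.3, 37.9, 32.6 and 32.6 CPM in OE-CTD against 28.9, 31.1, 27.8 and 24.9 CPM in OE-WD (-0.38, SE 0.116), and both subunit VIIa isoforms, Cox7a1 (-0.25, SE 0.0878) and Cox7a2 (-0.19, SE 0.0781), each without overlap. Atp5e (ENSMUSG00000016252, chromosome 2, 174461072 to 174464105), the epsilon subunit in the central stalk of ATP synthase, had 382, 345, 337 and 384 CPM in OE-CTD against 325, 295, 313 and 316 CPM in OE-WD and -0.21 (SE 0.0800). The adjusted p of every one of the 80 genes was 1 by edgeR's quasi-likelihood test with Benjamini-Hochberg adjustment.

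The interaction of diet and genotype, the difference between the diet effect in OE and in CT mice, tests whether the directions above differ. It uses the same 14 libraries as the comparisons above and is no separate evidence. The median over the 80 genes was -0.30 on the log2 scale, against -0.01 over all genes, and 77 lay below 0; complexes I to V had -0.29, -0.19, -0.31, -0.33 and -0.30. EdgeR's quasi-likelihood test called 0 of the 80 and 0 of all genes (0.00%), so that no single gene's diet effect was shown to differ between the genotypes. At an unadjusted p under 0.05, 37 of the 80 (46.2%) were below 0, against 3.34% of all genes, and 0 above, against 2.57%: 16 genes of complex I, 1 of II, 4 of III, 9 of IV and 7 of V. DESeq2 called 0, against 0.0194% of all genes, with 44 at an unadjusted p under 0.05, limma on log2(FPKM + 1) 0 with 39, and the replicate block 0 with 54, when 7.78% of all genes were at such a p (5.92% without the block). The count of 37 was 23 without CT-CTD 1, 62 without CT-WD 1 (10.7% of all genes), 18 without CT-WD 2, 17 without CT-WD 3 and 21 without OE-CTD 1, and 20 with no scaling factor.

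Cox7a1 had the smallest p of complex IV, with a difference of -0.48 (SE 0.134) on the log2 scale and an adjusted p of 0.825 by edgeR's quasi-likelihood test with Benjamini-Hochberg adjustment. Its mean level was 142 ± 7.0 CPM in CT-CTD, 166 ± 20.0 in CT-WD, 164 ± 12.3 in OE-CTD and 138 ± 10.9 in OE-WD (SD, n = 3, 3, 4 and 4). The CT mean was higher on the western diet and the OE mean lower. Ndufs8 (ENSMUSG00000059734, chromosome 19, 3908870 to 3912717), an iron-sulphur subunit of complex I, had -0.41 (SE 0.125), with 115 ± 13.1, 129 ± 7.95, 132 ± 9.60 and 112 ± 5.23 CPM in the same order. Sdhb had -0.31 (SE 0.113), Uqcrq -0.41 (SE 0.129), Atp5e -0.36 (SE 0.122) and Atp5l -0.43 (SE 0.154). Sdha, Ndufs1 and Atp5a1 had smaller values, -0.14 (SE 0.103), -0.09 (SE 0.126) and -0.20 (SE 0.124).

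**Figure D2:**
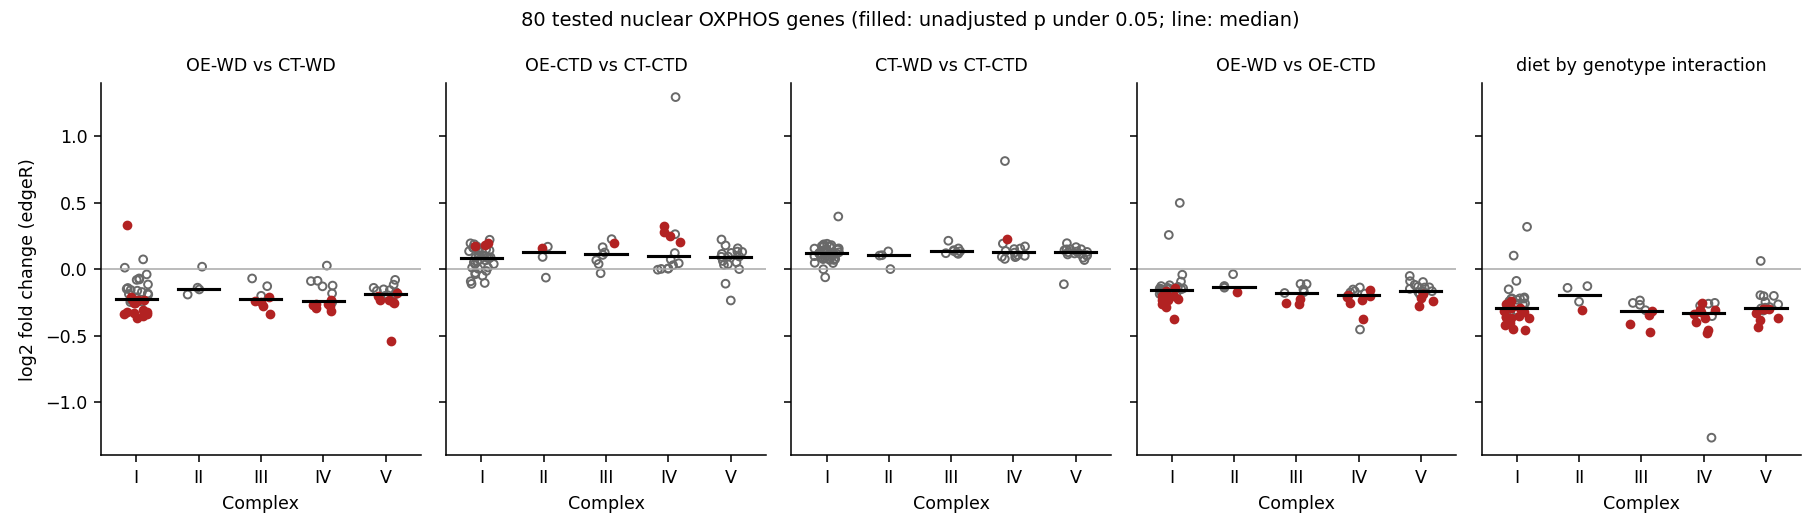
Log2 fold change of each tested gene (vertical axis) by complex (horizontal axis) in the 4 comparisons and the interaction of diet and genotype; each point is a gene, filled points have an unadjusted p under 0.05, and lines mark the median of the complex. Medians of complexes I to V lie from -0.24 to -0.15 in OE-WD against CT-WD and from 0.10 to 0.14 in CT-WD against CT-CTD, comparisons that share the CT-WD libraries.

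Several listed genes share reads with near-identical copies, which the counting may split. A search of annotated transcripts (at least 90% identity over at least 200 bases) found copies in the same orientation whose counts came to more than 5% of the gene's own count for 9 tested genes. The highest share was that of BC002163 beside Ndufs5, at 574%, and that of Gm6969 with a smaller copy beside Cox7a2l was 50.7%. Matches in the opposite orientation came to more than 5% for 3: Atp5l, Ndufb5 (Mrpl47, 6.77%) and Ndufb6 (Smim27, 5.16%), and the latter 2 overlap the matching gene on the other strand. Atp5l has 17 copies in the same orientation holding 23.2% of its count, mostly in Gm10221, identical to it over 309 bases. With the copies added, Atp5l had a log2 fold change of -0.53 (SE 0.111) in OE-WD against CT-WD and an adjusted p of 0.0401 by edgeR's quasi-likelihood test with Benjamini-Hochberg adjustment. Senp6 matches it in the opposite orientation, with 96.7% identity over 245 bases, and its whole count came to 26.4% of that of Atp5l; which share of the reads falls on those bases was not tested. With the whole count of Senp6 added too, a setting chosen after seeing the data, Atp5l had -0.45 (SE 0.0994) and an adjusted p of 0.0519 by edgeR's quasi-likelihood test with Benjamini-Hochberg adjustment, so the call was lost. Left out of the list with the other 8 genes that have copies in the same orientation, Atp5l leaves 0 of the tested genes called by edgeR in that comparison and 32 at an unadjusted p under 0.05.

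Ndufa12 (ENSMUSG00000020022, chromosome 10, 94198720 to 94221443), an accessory subunit of complex I, was singled out after its values were seen. It had 32.3, 104 and 49.5 CPM in CT-CTD, 79.8, 114 and 51.1 in CT-WD, 55.9, 78.9, 54.2 and 43.1 in OE-CTD, and the OE-WD libraries had 82.9, 83.3, 80.8 and 81.3 CPM. The CT libraries spread over the whole range while the OE-WD libraries were close to each other, a pattern unlike that of its complex. Its copy Gm15920, 99.5% identical over 402 bases, holds counts equal to 81.1% of its own, and with these added the log2 fold change of OE-WD against OE-CTD was 0.17 (SE 0.143) in place of 0.50 (SE 0.291). Values of Ndufs5, Ndufa12 and Cox7a2l, and to a lesser degree those of Atp5g1, Atp5l and Cox5b, are uncertain for this reason. The counting is not stated to use strand, and genes on the opposite strand overlap others of the list: Braf has 68.6% of the count of Ndufb2, Eef1b2 30.9% of Ndufs1 and Mrpl36 30.5% of Ndufs6.

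**Figure D3:**
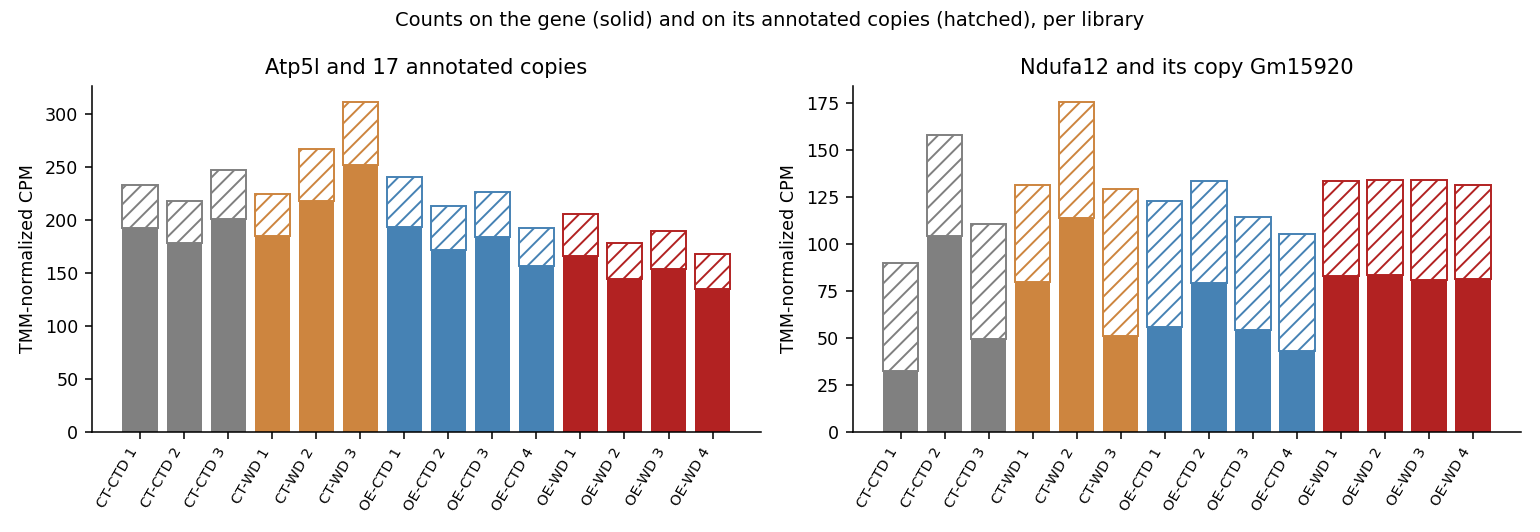
Level in CPM after TMM scaling of Atp5l with its 17 annotated copies in the same orientation and of Ndufa12 with its copy Gm15920 in each of the 14 libraries (vertical axis from 0); the lower part of each bar is the gene and the upper part its copies. Ndufa12 itself ranges from 32.3 CPM (CT-CTD 1) to 114 CPM (CT-WD 2), and the 4 OE-WD libraries lie between 80.8 and 83.3 CPM.

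Genes that serve the same complexes were described from lists by name. For these lists and the markers of cell types, the shares of all tested genes at an unadjusted p under 0.05 are 8.44% higher and 8.42% lower in OE-WD against CT-WD, 9.22% and 6.70% between the genotypes on the control diet, 4.19% and 3.09% between the diets in CT mice, 1.93% and 2.27% between the diets in OE mice, and 2.57% and 3.34% in the interaction. In OE-WD against CT-WD, edgeR's quasi-likelihood test called 0 of the tested assembly factors (15 of complex I, 4 of II, 6 of III, 19 of IV and 4 of V); at an unadjusted p under 0.05, 3, 1, 0, 1 and 0 were lower and 1, of complex IV, was higher. Their median log2 fold changes were -0.12, -0.22, -0.18, -0.08 and -0.05. Coa5 (ENSMUSG00000026112, chromosome 1, 37417084 to 37430103), a complex IV assembly factor, was the higher one, with 146, 157 and 150.1 CPM in CT-WD against 188, 182, 174 and 178 CPM in OE-WD, no overlap and 0.26 (SE 0.0670) on the log2 scale. Ndufaf4 (ENSMUSG00000028261, chromosome 4, 24898083 to 24905001), of complex I, had -0.19 (SE 0.0757). Of the 5 chain genes outside the naming rule, 0 were called and 1 was at an unadjusted p under 0.05, Cox4i1 (ENSMUSG00000031818, chromosome 8, 120668222 to 120674207), subunit IV of complex IV, with 596, 711 and 771 CPM in CT-WD against 589, 564, 567 and 626 CPM in OE-WD and -0.24 (SE 0.0958). CT-WD 1 lay within the OE-WD range. For the 13 genes of the citrate cycle the median was -0.07, with 0 called and 2 lower at an unadjusted p under 0.05, among them Idh3g (ENSMUSG00000002010, chromosome X, 73778963 to 73786897), a subunit of isocitrate dehydrogenase (-0.24, SE 0.0917).

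The 13 genes encoded in mitochondrial DNA had a median on the other side of 0 from the nuclear ones, with a log2 fold change of 0.22 in OE-WD against CT-WD; whether the 2 lists differ was not tested. EdgeR's quasi-likelihood test called 0 of them; at an unadjusted p under 0.05, 1 was higher, mt-Nd5 (ENSMUSG00000064367, chromosome MT, 11742 to 13565), with 0.40 (SE 0.147), and 1 lower, mt-Co3 (ENSMUSG00000064358, chromosome MT, 8607 to 9390), with -1.11 (SE 0.459). Of the 13 genes 12 had a log2 fold change above 0, and for mt-Nd5 every OE-WD library lay above every CT-WD library. The summed level of the 13 genes was 109435, 105413 and 98839.7 CPM in CT-WD and 116876, 105951, 100803 and 158473 CPM in OE-WD. OE-WD 4 stood far above the rest, and OE-WD 1 also lay above every CT-WD library. Among 15 regulators of mitochondrial genes, the test called 1, Esrrb (ENSMUSG00000021255, chromosome 12, 86361117 to 86521628), an orphan nuclear receptor. Esrrb had 16.7, 12.0 and 16.5 CPM in CT-CTD, 14.8, 13.6 and 15.4 in CT-WD, 23.5, 25.5, 23.5 and 29.1 in OE-CTD, and the OE-WD libraries had 22.2, 23.2, 23.1 and 23.2 CPM. Every OE library lay above every CT library. It rose by 0.65 on the log2 scale on the western diet (SE 0.116) and by 0.75 on the control diet (SE 0.116), with adjusted p of 0.0282 and 0.00605 by edgeR's quasi-likelihood test with Benjamini-Hochberg adjustment. Ppargc1a (ENSMUSG00000029167, chromosome 5, 51454250 to 51567726), the coactivator PGC-1 alpha, had 89.7, 64.2 and 70.8 CPM in CT-CTD against 162, 84.1 and 194 CPM in CT-WD and 0.97 (SE 0.294) on the log2 scale, was not called and had overlapping groups.

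In the other comparisons edgeR's quasi-likelihood test called 0 genes of these lists apart from Esrrb. On the control diet the citrate cycle median was 0.08, with Mdh2 (ENSMUSG00000019179, chromosome 5, 135778480 to 135790398), malate dehydrogenase, at 0.21 (SE 0.0847), and the mitochondrial DNA median was 0.26. Between diets the citrate cycle median was 0.07 in CT and -0.09 in OE mice, with 13 of 13 genes above and 13 of 13 below 0. Gabpb1 (ENSMUSG00000027361, chromosome 2, 126627442 to 126676337), a subunit of the ETS factor GABP, had 0.41 (SE 0.114) in OE-WD against OE-CTD.

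Other gene lists differed between the same groups, and their part in the result was not tested. In OE-WD against CT-WD, 6 of 91 tested cytosolic ribosomal protein genes were called lower, against 0.725% of all genes called. At an unadjusted p under 0.05, 62 were lower, against 8.42%, and 2 higher, against 8.44%, with a median of -0.30. These genes are also short and highly expressed; their summed level, led by Rpl4, was 10225, 12323 and 12445 CPM in CT-WD and 9739.8, 8949, 9390.4 and 9979.8 CPM in OE-WD, so CT-WD 1 again lay nearest to OE-WD. Their median was -0.09 between the genotypes on the control diet, 0.10 between the diets in CT mice, -0.13 between the diets in OE mice and -0.22 in the interaction. Outside the first comparison edgeR called 0 of them; at an unadjusted p under 0.05, 23 of 91 (25.3%) were below 0 in the interaction, against 3.34% of all genes, and 9 of 91 (9.89%) were lower between the diets in OE mice, against 2.27%, with 0 on the other side in both. On the control diet 2 were higher and 6 lower between the genotypes, and between the diets in CT mice 6 were higher and 1 lower. In OE-WD against CT-WD all 6 endothelial markers had a log2 fold change above 0, 5 of them at an unadjusted p under 0.05, and Cdh5, the marker whose promoter drives tTA, rose by 0.46 with an adjusted p of 0.0322 by edgeR's quasi-likelihood test with Benjamini-Hochberg adjustment. Their summed level was 307, 264 and 278 CPM in CT-WD and 353, 381, 358 and 376 CPM in OE-WD. The median of the 6 was 0.39 there and 0.33 on the control diet, where all 6 again lay above 0 and 5 were at an unadjusted p under 0.05, beside a median of the listed nuclear genes on the other side of 0 from that on the western diet. On the control diet Tek (ENSMUSG00000006386, chromosome 4, 94739289 to 94874976), an endothelial receptor kinase, rose by 0.52 (SE 0.110), higher in 4 of 4 OE-CTD libraries, with an adjusted p of 0.0232 by edgeR's quasi-likelihood test with Benjamini-Hochberg adjustment. Between the diets the endothelial median was 0.06 in CT mice and 0.10 in OE mice, with 0 called by edgeR and 2 and 1 of 6 at an unadjusted p under 0.05.

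Tendon, epidermis and adipocyte markers had medians of 1.25, 0.86 and 0.65 in OE-WD against CT-WD, with 0 called by edgeR's test in each list and 1 of 5, 0 of 5 and 1 of 6 at an unadjusted p under 0.05. The tendon markers, led by Fmod, summed to 476, 83.9 and 107 CPM in CT-WD and 408, 842, 556 and 300.2 CPM in OE-WD, and the adipocyte markers, led by Cfd, to 144, 41.2 and 23.2 and 58.8, 108, 76.0 and 75.2 CPM. The epidermis markers, led by Krt5, summed to 89.5, 8.55 and 10.3 and 14.8, 80.0, 120.0 and 35.8 CPM. In all 3 lists CT-WD 2 and CT-WD 3 were below every OE-WD library and CT-WD 1 within or above their range, so CT-WD 1 was the CT-WD library nearest to OE-WD in the tendon and epidermis lists as in the listed nuclear genes. Macrophage, blood and Schwann cell markers had medians of 0.28, -0.09 and 0.15, and 0 of their genes were called or at an unadjusted p under 0.05 in edgeR's test. Of 4 brown adipocyte markers 3 were tested, with a median of 0.44, a range of -0.96 to 1.29 and summed levels of at most 15.5 CPM. EdgeR called 0 of the 3, and 1 was higher at an unadjusted p under 0.05. Ucp1 did not pass the filter, with 490 of its 572 counts in 1 library.

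Fast, slow and general skeletal muscle markers had medians of -0.09, -0.03 and -0.06 in OE-WD against CT-WD, with 0 called by edgeR's test and 1 lower, 2 higher and 0 at an unadjusted p under 0.05. On the control diet the slow fibre markers had a median of 0.24, with 3 of 8 higher at an unadjusted p under 0.05 and 0 called. The median over the listed nuclear genes was 0.09 there. Between the diets the slow fibre median was 0.13 in CT mice, with 6 of 8 above 0, and -0.15 in OE mice, with 7 of 8 below 0; edgeR called 0 and 0 were at an unadjusted p under 0.05. In the interaction it was -0.26, with 6 of 8 below 0, 2 of 8 lower at an unadjusted p under 0.05 and 0 called by edgeR, beside a median of -0.30 over the listed nuclear genes, and their part in the result was not tested. Fast fibre and skeletal muscle medians were 0.07 and 0.08 between the diets in CT mice, 0.01 and -0.03 in OE mice, and -0.06 and -0.08 in the interaction, with 0 called by edgeR and 0 at an unadjusted p under 0.05. On the control diet the tendon and macrophage medians were 1.67 and 0.87, each with 4 of 5 genes at an unadjusted p under 0.05 and 0 called. There the adipocyte, brown adipocyte and epidermis medians were -0.19, -1.07 and 0.62, with 0 called by edgeR and 2 of 6, 1 of 3 and 1 of 5 at an unadjusted p under 0.05.

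Markers of other cells also had medians away from 0 between the diets, where edgeR called 0 of them, and their part in the result was not tested. In CT mice the adipocyte and brown adipocyte medians were -0.98 and -1.29, with 6 of 6 and 3 of 3 genes below 0, and 0 and 1 at an unadjusted p under 0.05. The epidermis, tendon and macrophage medians there were 0.95, 0.56 and 0.48, each with 5 of 5 genes above 0, and 1, 0 and 0 at an unadjusted p under 0.05. In OE mice the epidermis median was 1.34, with 5 of 5 above 0 and 1 at an unadjusted p under 0.05. The tendon, macrophage, adipocyte and brown adipocyte medians were 0.19, 0.03, -0.01 and 0.44 in OE mice, with 0 of these genes at an unadjusted p under 0.05. In the interaction the adipocyte and brown adipocyte medians were 0.86 and 1.26, with all tested genes above 0 and 0 and 1 at an unadjusted p under 0.05. The macrophage, tendon and epidermis medians in the interaction were -0.49, -0.32 and 0.25, with 0 of these genes called by edgeR or at an unadjusted p under 0.05.

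Sequence before the gene starts was read from RefSeq promoters on GRCm38.p6, windows of 300 bases of which 50 follow the start. Of the gene symbols on the list 68 had a window and 14 had none; a gene can have several windows, and it was counted where any of them held a string. Short strings known from sites of factors that regulate mitochondrial genes were searched on both strands. GCGCATGC, the core of the NRF1 site, was in 14.7% of the 68 genes against 3.05% of all 27025 genes in the table, CCGGAAG, an ETS site, in 23.5% against 9.93%, AAGATGGC, a YY1 site, in 14.7% against 3.19%, and AAGGTCA, the site of ERR receptors, in 11.8% against 5.38%. The E-box CACGTG, a site Myc can bind, was in 8.82% against 8.09%, in 4 of 15 genes of complex V, 2 of 32 of complex I and 0 of 3, 5 and 13 of complexes II, III and IV. By single windows, the 5 strings in this order were in 13.7%, 21.9%, 13.7%, 11% and 9.59% of the 73 of the list and 2.71%, 8.86%, 2.75%, 4.72% and 7.15% of all 32851, and the median GC content was 57.33% against 52.67%. A match is a description of letters, and the driver of the transgene is active in endothelial cells.

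The promoter of Atp5l, the one listed gene called, is shown because it holds 4 of these 5 strings. It is chr9:44920743-44920992 on the minus strand, the 250 bases before the start, written 5′ to 3′ with the matches in capitals, each as the reverse complement of the letters above: the NRF1 core 240 bases before the start, the ETS site 212 before, the E-box, which reads the same on both strands, 147 before, and the ERR site 13 before.
Atp5l: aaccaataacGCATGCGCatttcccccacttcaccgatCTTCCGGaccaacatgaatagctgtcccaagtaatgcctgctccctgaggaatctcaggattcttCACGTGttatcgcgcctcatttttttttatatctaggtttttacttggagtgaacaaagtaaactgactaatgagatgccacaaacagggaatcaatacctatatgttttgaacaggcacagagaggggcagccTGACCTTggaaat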

How the data were processed

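The authors deposited a table of counts per Ensembl gene and a table of FPKM values for the 14 libraries, with the length of each gene model. The deposited counts are whole numbers and were not normalized, and the authors made the FPKM values by dividing each count by gene length and by a library total of 79.9% to 98.0% of the summed counts. The submitters' processing notes name HISAT2 2.0.5, featureCounts 1.5.0-p3 and build mm10; the strand setting and the treatment of reads with several matches were not given in the sources used here. All columns of samples were used.

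Groups and replicate numbers came from the labels. Counts were tested with edgeR 4.0.16 (R 4.3.3): TMM factors, the default filter by group on low counts, the quasi-likelihood test with 1 mean per group over all 14 libraries, and Benjamini-Hochberg adjustment over the 15458 genes tested. The filter removed 0.0467% to 0.0694% of the counts of a library. The result of a check of the test on simulated data is not reported here, and no statement here rests on it. Alternatives were DESeq2 1.42.0, limma 3.58.1 on log2(FPKM + 1) and on log2(FPKM + 0.1), median ratio size factors, no filter, a fold change over 1.5, the groups of each comparison alone, the replicate number as a block, 2 changed gene lists and each library left out. After the data were seen, runs without named libraries, without scaling factors, without genes with counted copies, with matching transcripts added to Atp5l and with a block in the CT groups alone were added. Levels between genes are FPKM from the counts, the gene lengths and the TMM-scaled totals.

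In the CT groups, libraries sharing a replicate number had deviations from the group mean that correlated over genes (0.385, 0.123 and 0.203, each over 0.1), so the replicate numbers were taken to pair the CT libraries, from this check alone. For the OE libraries the values were 0.0711, 0.138, 0.142 and 0.338, the first under 0.1 and the rest over it, and the numbers were not taken to pair them. Libraries of different replicate numbers were not compared, so the check does not show that matched numbers correlate more than unmatched ones. Between CT and OE libraries of one diet the values ran from -0.230 to 0.0465. The replicate block in the model of all groups also joins these libraries, which were not taken as pairs.

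The genes and the other lists were chosen with earlier results of these data known. Genes were named by rule: those with an adjusted p under 0.05, at most 3 per complex; otherwise the smallest p per complex; a set fixed by role (core subunits, isoform pairs, head and c-ring genes); the highest and lowest level per length in each complex; those the filter removed; and the smallest p in each direction of each related list. Ndufa4l2, Ndufa12, Ndufa6, Ndufa10, Ndufs5, Ndufs6, Ndufv2, Cox5b and Cox7a2l fall outside it and were chosen after their values were seen. Ndufb5 and Ndufb6, named for their matches in the opposite orientation, also fall outside the rule. One gene that the rule takes in is not reported here by itself. Copies were searched with blastn 2.17.0 among the transcripts of GENCODE M21, at 90% identity or more over 200 bases or more; matches in the same orientation were counted as copies. Tables were handled with pandas 2.3.3 and plots drawn with matplotlib 3.10.9.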

Additional observations from a re-analysis of the deposited data

Results flagged for a closer look

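In groups of 4 libraries, the highest or lowest value of each named gene was compared with its neighbours by Dixon's ratio; 70 groups were tested and 2 had a library that stood apart, where chance gives about 1 in 20. Cox6a2 had 864 CPM in OE-WD 4, above the 790.2 to 801 CPM of the other OE-WD libraries. Cox6a1 had 27.5 CPM in OE-WD 2, below the 30.3 to 30.7 CPM of the others.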

How the results depend on the processing

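For OE-WD against CT-WD, edgeR called 1 of the 80 genes; DESeq2 called 6, limma 0 on log2(FPKM + 1) and 0 on log2(FPKM + 0.1), and edgeR 0 with the 2 groups alone, 0 with a fold change over 1.5, 0 without OE-CTD 4 and OE-WD 4, 0 without scaling factors and 0 for the list without genes with counted copies. Without scaling factors the 37 genes at an unadjusted p under 0.05 became 21. For OE-CTD against CT-CTD the 9 such genes became 4 without the filter, 5 with limma on log2(FPKM + 0.1), 4 with the 2 groups alone and 16 with the replicate block. For CT-WD against CT-CTD the 1 gene became 3 with DESeq2, 2 with limma on log2(FPKM + 1), 0 on log2(FPKM + 0.1), 0 without the filter, 0 with the 2 groups alone, 0 without scaling factors, 2 with the replicate block and 0 with the block in the CT groups alone. For OE-WD against OE-CTD the 26 became 15 with limma on log2(FPKM + 0.1), 40 with the 2 groups alone and 13 without OE-CTD 4 and OE-WD 4. For the interaction the 37 became 20 without scaling factors, and no fit of 2 groups alone is possible for it. The causes were not tested. Shares of all genes are given for only some of these settings, and a count without one is not read as a result about the list.

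The libraries with numbers apart in the sample names, CT-CTD 1, CT-WD 1 and OE-CTD 4, were left out together as an alternative chosen after seeing the data. It gave the most calls of all settings: 39 of the 80 for OE-WD against CT-WD, with 65 at an unadjusted p under 0.05 and a median log2 fold change of -0.29, and 2060 genes called in all (13.1%). For OE-CTD against CT-CTD it called 1. It gave 16 genes at an unadjusted p under 0.05 between the diets in CT mice, 44 in OE mice and 57 for the interaction. The shares of all genes in these comparisons are not given for this run, so these counts are not read as results about the list.

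As each library was left out, OE-WD against CT-WD had 0 to 24 calls, 13 to 62 genes at an unadjusted p under 0.05 and a median of -0.29 to -0.15. OE-CTD against CT-CTD had 0 to 1 calls and 0 to 11 such genes, the diets in CT mice 0 to 34, the diets in OE mice 8 to 37 and the interaction 17 to 62, the last 3 with 0 calls by edgeR. With the replicate block, edgeR called 1 gene for OE-WD against CT-WD, Atp5l, with 41 at an unadjusted p under 0.05; it changed no other call. It gave 32 and 54 such genes for OE-WD against OE-CTD and the interaction.

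For single named genes, 3730 alternative values were computed. Of these, 3656 kept their side of the threshold, and those not called moved by less than the main fit's standard error. Another 33 that were not called moved by at least that error. The adjusted p came under 0.05 for 29 and over it for 12, each of Atp5l. A reversal was counted only where a gene was called in either fit, and there were 0. For genes called in neither fit the direction was not checked. Of the values over the list, 348 stayed close and 62 moved. Without scaling factors the split of all genes at an unadjusted p under 0.05 went from 1304 higher and 1301 lower to 1320 and 804 for OE-WD against CT-WD, from 647 and 478 to 386 and 549 for CT-WD against CT-CTD, and from 398 and 517 to 477 and 304 for the interaction.

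With 3 or 4 libraries a group, a gene that was not called is not shown to be equal. Which muscle each library came from, and what the numbers in the sample names mark, were not given in the sources used here; neither was a term in a fit, and the numbers in the names set the runs without CT-CTD 1, CT-WD 1 and OE-CTD 4.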
